A study of Sus scrofa with 22 samples.

Results

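6 genes of the B lineage and of antibody traffic in the gut wall were followed in piglet small intestine after 2 kinds of chemotherapy. They are LOC396781 (the IgG heavy chain), VPREB1, CD79A, CCR10, CCL21 and PIGR. Members were all array probes whose transcript accession maps to these 6 pig symbols, which gave 19 of 43603 probes and 6 of 3029 named genes. LOC396781 had 13 probes, VPREB1 had 2, and each of the others had 1. All 19 passed the filter on dim probes, which kept 31752 probes with a piglet signal well above background on at least 5 arrays. The genes were chosen by their log2 ratios in these same 4 groups, so their levels and differences are given as a description, with sizes and intervals and without p-values. Where a member is said below to pass or miss the threshold of the fit, that is also only a description, because the same values chose it. Tests are given for 36 other genes of the same pathways.

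RNA came from 22 crossbred SPF piglets (Large White × Danish Landrace), given as 3 days old, which had suckled their mothers and received an orogastric tube and a jugular catheter under anaesthesia. One experiment compared 6 piglets given doxorubicin (DOX), a topoisomerase II inhibitor, as a single intravenous dose with 6 untreated piglets. A separate experiment compared 5 piglets given intravenous busulfan plus cyclophosphamide (BUCY), both alkylating drugs, with 5 untreated piglets. Doses, sampling times, the segment of the small intestine, litter and sex were not stated in the descriptions used. Each array held the RNA of 1 piglet in Cy5 and a pool of all samples in Cy3. A level below is therefore a log2 ratio to that pool, where 0 equals the pool and -1 is a level at 50% of it, and levels of different genes are not compared.

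Immunoglobulin heavy chain RNA is made by B cells and, in very large amounts, by plasma cells. VPREB1 is part of the surrogate light chain that B cell precursors pair with a new heavy chain, and CD79A carries the signal of the B cell receptor. CCR10 guides antibody-secreting cells to mucosa, CCL21 draws CCR7-bearing lymphocytes and dendritic cells into lymphoid tissue, and PIGR carries polymeric IgA and IgM across the epithelium into the gut lumen. Piglets receive maternal antibody as protein through colostrum, whereas the arrays measured RNA of the piglet's own tissue.

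Per array, 59.7% to 72.5% of probes were well above background, no spot was saturated, and the median Cy5 signal was 88 to 210. The enterocyte markers FABP2, APOA1, APOA4 and ANPEP were well above background on 22 of 22 arrays, as a small intestine label implies. Treated BUCY piglets 2 and 3 stood apart, with an SD of log2 ratios over tested probes of 0.584 and 0.682 against 0.273 to 0.508 on the other arrays. The arrays filled 7 slides read on 3 scan days, and both experiments had treated and untreated piglets within scan days. Over all probes 7 pairs of arrays correlated below -0.3, the lowest at -0.378; the labels state the same dye order for every array, so the direction of the ratios was kept.

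IgG heavy chain RNA was lower after both drugs, by more after DOX than after BUCY on all 13 probes. Across the 13 probes the difference after DOX was -4.52 to -2.70 on the log2 scale, with a median of -4.23, or 18.8-fold lower (6.50 to 22.9-fold). After BUCY it was -2.81 to -1.05, with a median of -2.61, or 6.11-fold lower (2.07 to 7.0-fold). As a description, all 13 probes were past the threshold of the limma fit as lower after DOX (adjusted p under 0.05 over all tested probes), where 0.652% of all tested probes were, and 12 of 13 after BUCY, where 9.97% were; the probes were chosen by these contrasts. In bulk tissue, fewer cells of a type and less RNA per cell cannot be told apart.

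By piglet, the median of the 13 probes in untreated piglets of the DOX experiment was 0.06 at the lowest, 0.89 in the middle and 1.87 at the highest. After DOX the corresponding values were -3.59, -3.25 and -3.02. The groups were far from overlapping, and the spread was narrower after treatment (SD 0.21, n = 6) than in untreated piglets (SD 0.77, n = 6). In the BUCY experiment the 5 untreated piglets lay at -0.97, -1.82, -0.28, 1.5 and -0.13, and the 5 treated piglets at -3.63, -3.16, -1.87, -2.89 and -2.88. Every treated piglet was below every untreated one on this median, but treated piglet 3 at -1.87 and untreated piglet 2 at -1.82 almost met. The treated groups lay at -3.27 ± 0.21 (SD, n = 6) and -2.88 ± 0.64 (SD, n = 5), and the untreated groups at 0.98 ± 0.77 (SD, n = 6) and -0.34 ± 1.23 (SD, n = 5).

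**Figure D1:**
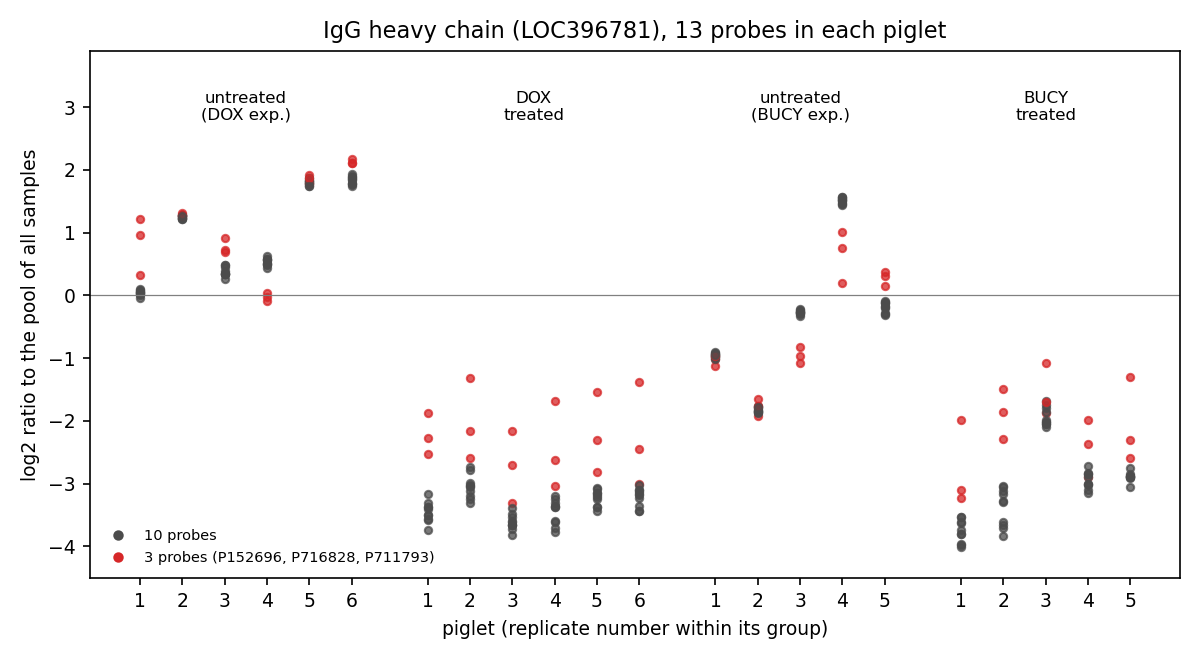
Log2 ratio to the pool of all samples (y axis) of the 13 IgG heavy chain probes in each of the 22 piglets (x axis, by group), 1 point per probe; red marks the 3 probes A_72_P152696, A_72_P716828 and A_72_P711793. All points of DOX treated piglets lie below all points of the untreated piglets of that experiment, and untreated piglets of the BUCY experiment range from about the level of the treated to above the pool.

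On the brightest probe, A_72_P152696, the raw Cy5 signal was 7098 to 27957 in untreated piglets of the DOX experiment and 534 to 935 after DOX. It was 2014 to 5911 in untreated piglets of the BUCY experiment and 408 to 719 after BUCY. This probe was well above background on every array in all 4 groups, so its low levels after treatment were measured and are not bounds. So were the others, except 2 probes that reached this in 4 of 5 BUCY treated piglets. Of the 20 largest decreases among all tested probes after DOX, 11 were IgG probes and the other 9 carry no gene symbol. After BUCY 4 of the 20 largest decreases were IgG probes, and the named others were FOLH1B, DPEP1, AQP10, SELENOP and VNN1.

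The 13 probes did not give the same order of untreated piglets. They were split into sets of 10 and 3 by clustering on their correlations after removing the group means. A higher r within sets than between them was thus fixed by the split. Over 22 arrays r was 0.958 to 0.997 within the set of 10 and 0.885 to 0.973 within the set of 3. Between the sets it was 0.696 to 0.909. A_72_P711793 correlated at 0.840 to 0.909 with the set of 10 and at 0.885 with A_72_P152696 of its own set. These correlations share arrays and labelling and are a description. In untreated piglet 1 of the DOX experiment the set of 10 averaged 0.04 and the set of 3 averaged 0.84, and in untreated piglet 4 they averaged 0.54 and -0.02. Untreated piglet 4 of the BUCY experiment had 1.52 and 0.66, the highest of its group in both sets. By these averages the sets ranked untreated piglets of the DOX experiment differently. They ranked those of the BUCY experiment in the same order. After DOX the set of 3 was lower by 6.50 to 17.5-fold and the set of 10 by 17.8 to 22.9-fold. After BUCY these were 2.07 to 3.69-fold and 5.71 to 7.0-fold. The smallest values, 6.50 and 2.07-fold, came from A_72_P711793, which was dim after treatment. Its raw Cy5 signal was 102 to 153 after DOX and 95.5 to 160.5 after BUCY, and the processing shrinks differences of dim probes. All 13 probes map to 1 transcript accession, and porcine IgG subclass genes are near-identical copies, so which heavy chain transcripts each probe reports is uncertain; no other symbol starting with IGH, IGK or IGL was matched to a probe.

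VPREB1 was lower after DOX, and its difference after BUCY was near 0. On probe A_72_P302939 the log2 ratio in untreated piglets of the DOX experiment was -0.27 at the lowest, 0.78 at the median and 1.13 at the highest, and after DOX -0.90, -0.59 and -0.30. The difference was -1.18 (SE 0.184, 2.27-fold lower) on this probe and -1.24 (SE 0.185, 2.36-fold lower) on A_72_P719588, with no overlap on either. In the BUCY experiment untreated piglets lay at -0.49, -0.55, -0.61, -0.61 and -0.52 and treated piglets at -0.92, -0.61, -0.35, -0.74 and -0.42 on A_72_P302939. On these ratios the untreated piglets of that experiment lay near the level of DOX treated piglets. The probe was well above background in 5 of 5 of the former and 2 of 6 of the latter, so equal levels are not shown. The difference after BUCY was -0.05 (95% interval -0.47 to 0.37).

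These VPREB1 signals were dim. A_72_P302939 was well above background in 2 of 6 DOX treated and 2 of 5 BUCY treated piglets. A_72_P719588 was well above background in 0 of 6 DOX treated piglets, so its level there is only an upper limit. The size depended on the processing: the scanner's own ratio, which adds no offset to dim signals, gave -3.50 for A_72_P302939 after DOX. By that ratio untreated piglets of the BUCY experiment differed from those of the DOX experiment by -2.46, a smaller decrease than after DOX.

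CD79A lay lower after DOX by -0.74 (SE 0.155, 1.66-fold). Untreated piglets ranged from 0.04 over a median of 0.45 to 1.35, and DOX treated piglets from -0.37 over -0.23 to 0.05, so the groups met at their edges. In the BUCY experiment untreated piglets had -0.08, -0.20, -0.22, -0.13 and -0.04, and treated piglets had -0.30, -0.42, -0.38, -0.55 and -0.18. That difference was -0.23 (95% interval -0.59 to 0.12) and did not pass the threshold. CD79A was dim there, at a raw Cy5 signal of 87 to 145 in untreated and 72 to 104.5 in BUCY treated piglets. It was well above background in 5 of 5 and 2 of 5 of them, so a further decrease could hardly be measured. The scanner's own ratio gave -1.62 after DOX and -0.83 after BUCY, the latter also without passing the threshold. CD79A no longer passed the threshold after DOX without treated piglet 1 or 3, or without the arrays with a suffix in their title (-0.70).

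CCR10 separated the DOX groups completely. Untreated piglets lay between 0.29 and 1.05 with a median of 0.38, and treated piglets between -0.73 and -0.58 with a median of -0.67, a difference of -1.14 (SE 0.140, 2.20-fold lower). The treated piglets were tightly grouped (SD 0.06, n = 6), at a dim raw Cy5 signal of 111 to 158.5. The processing shrinks differences between piglets at such signals too. After BUCY the untreated values 0.26, -0.32, 0.14, -0.02 and 0.04 stood against -0.94, -0.50, -0.02, -0.76 and -0.42, a difference of -0.55 (SE 0.153, 1.46-fold lower), with an overlap through treated piglet 3 and untreated piglet 2. The BUCY difference missed the threshold with slide as a block (-0.58) and in a fit of only the groups compared. The scanner's own ratio gave larger sizes for CCR10, -1.99 after DOX and -0.92 after BUCY.

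CCL21 was lower by similar amounts after both drugs. Untreated piglets of the DOX experiment lay between -0.39 and 0.64 with a median of 0.26, and treated piglets between -1.38 and -0.25 with a median of -0.80, a difference of -0.97 (SE 0.221, 1.95-fold lower). Untreated piglets of the BUCY experiment lay at 0.59, 0.61, 0.63, 1.27 and 0.83, and treated piglets at -0.36, -0.88, -0.39, 0.67 and -0.02, a difference of -0.98 (SE 0.242, 1.97-fold lower). Treated piglet 4 at 0.67 made the BUCY groups overlap, and the DOX groups overlapped too. The effect of BUCY minus that of DOX was -0.01 (95% interval -0.69 to 0.67). CCL21 was near the limit of the fit after DOX, where it missed the threshold with median centring and when any of 8 single arrays was left out (untreated piglets 1, 3, 5 and 6 and treated piglets 1, 2, 3 and 6; -1.08 to -0.85 over all such fits). After BUCY it missed the threshold without treated piglets 2 and 3 (-0.69) and in a fit of only the groups compared. The lymphatic endothelial marker PROX1 moved with it after BUCY, 1.58-fold lower (adjusted p = 0.00215, limma), and not past the threshold after DOX (1.10-fold lower, adjusted p = 0.657, limma); its part in the result was not tested.

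PIGR was bright in all groups and did not pass the threshold in any comparison. Untreated piglets of the DOX experiment lay between -1.0 and 0.09 with a median of -0.44, and treated piglets between -0.80 and 0.81 with a median of 0.26, a difference of 0.60 (95% interval -0.13 to 1.33). Untreated piglets of the BUCY experiment lay at 0.47, -0.17, -0.88, 1.37 and 0.13, and treated piglets at 0.55, 0.15, 1.60, 1.21 and -0.26, a difference of 0.46 (95% interval -0.33 to 1.26). The groups overlapped in both experiments.

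**Figure D2:**
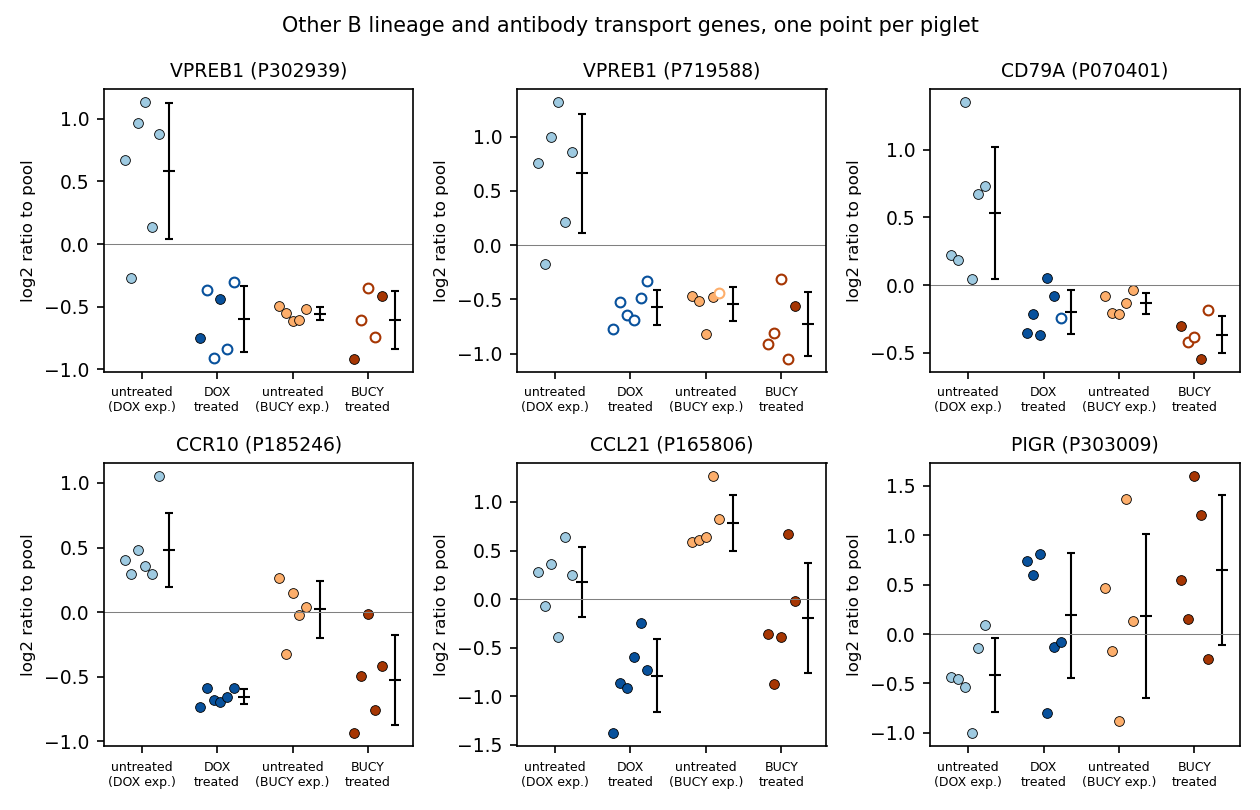
Log2 ratio to the pool (y axes) of the 2 VPREB1 probes and of CD79A, CCR10, CCL21 and PIGR, with 1 point per piglet in each of the 4 groups; open points are signals not well above background, and black bars give the mean and SD. CCR10 and both VPREB1 probes do not overlap between the DOX groups, VPREB1 lies low in both BUCY groups, and PIGR overlaps throughout.

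Over the 19 probes, 18 passed the threshold as lower after DOX, where 0.652% of all tested probes did, and 16 did not overlap between groups, where 1.63% of all probes were lower without overlap. All 13 IgG probes are in both counts, and they share 1 transcript accession, so they are not separate members. By gene, 5 of 6 had a probe past the threshold after DOX. After BUCY 14 of 19 passed as lower, 12 of them IgG probes and the others CCR10 and CCL21, where 9.97% of all tested probes did, and 7 did not overlap, where 3.65% of all probes were lower without overlap. These contrasts chose the members, so the counts are a description. Within each scan day that held both groups, all IgG probes were lower in treated piglets, at -4.93 to -2.37 after DOX and -4.16 to -0.49 after BUCY. These days held few piglets. For DOX they held 2 treated and 3 untreated, and 3 and 3. For BUCY they held 2 treated and 3 untreated, 2 and 1, and 1 and 1. The only untreated BUCY piglet of scan day 2 was piglet 4, the highest of its group at 1.5.

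The difference after BUCY was smaller than that after DOX for IgG and VPREB1, from lower untreated levels in the BUCY experiment. VPREB1 was dim there before treatment, at a raw Cy5 signal of 76 to 134 on A_72_P302939 and 74 to 127.5 on A_72_P719588. After BUCY these probes were well above background in 2 of 5 and 1 of 5 piglets, so a further decrease could hardly be measured. BUCY minus DOX was 1.49 to 2.24 over the IgG probes, with a median of 1.69, and 1.13 and 1.05 on the VPREB1 probes. Passing the threshold were 3 of 19 probes, the brightest IgG probe and both VPREB1 probes, where 4.01% of all tested probes were higher. That count was 15 without BUCY untreated piglet 4 and 6 without BUCY treated piglet 1. Neither the brightest IgG probe (1.91) nor VPREB1 on A_72_P302939 (1.05) passed without BUCY treated piglets 2 and 3. With slide as a fixed block 0 of 13 IgG probes passed, the brightest at 1.46. VPREB1 also missed the threshold with median centring (1.19) and without the arrays with a suffix in their title (0.91). CCR10 (0.59, 95% interval 0.16 to 1.02) and CD79A (0.50, 95% interval 0.02 to 0.98) did not pass.

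**Figure D3:**
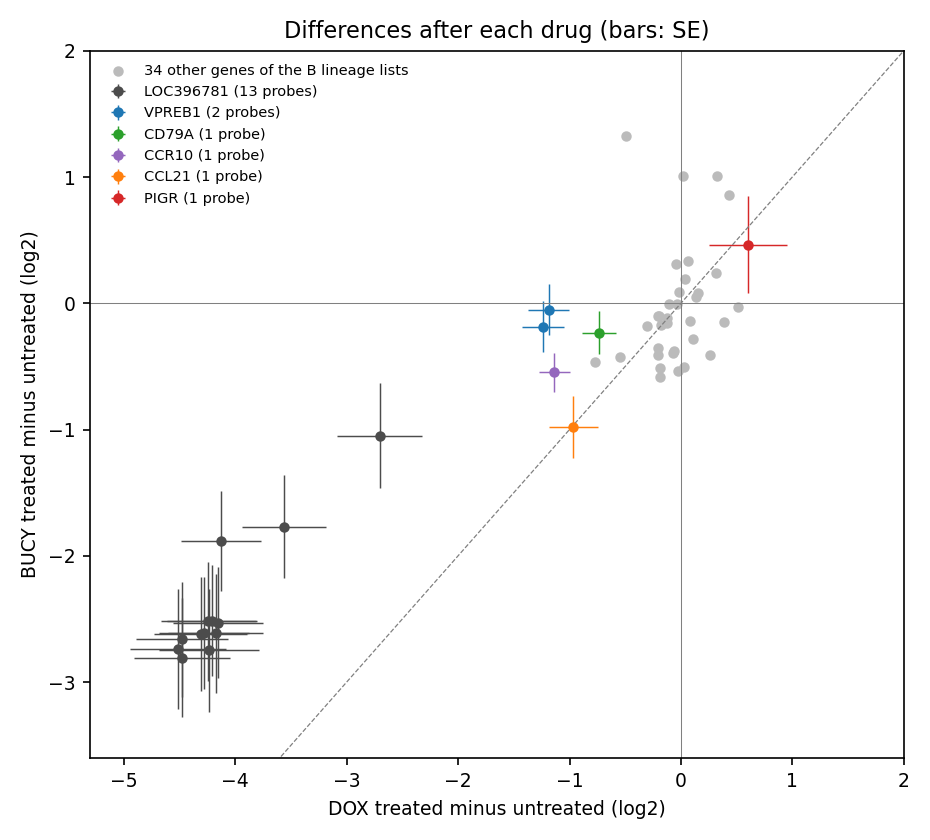
Log2 difference after BUCY (y axis) against log2 difference after DOX (x axis) for the 19 member probes, with SE bars, and for 34 other genes of the B lineage lists in grey; the dashed line marks equal effects. The IgG probes lie far to the lower left and above the line, VPREB1 lies near 0 for BUCY only, CCL21 lies on the line, and most other genes lie within about 1 of 0 on both axes.

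Untreated piglets of the 2 experiments differed for the same genes, and this bears on every BUCY and DOX value set side by side. IgG was 2.42 to 3.83-fold lower in untreated piglets of the BUCY experiment (median difference -1.32), VPREB1 2.21 and 2.31-fold lower, CD79A 1.59-fold lower and CCR10 1.38-fold lower. CCL21 (0.61) and PIGR (0.60) were higher without passing the threshold. Passing as lower were 17 of 19 probes, where 14.5% of all tested probes were lower, and 4 did not overlap, where 10.8% were lower without overlap. The IgG probes among them fell from 13 to 4 without untreated piglet 5 or 6 of the DOX experiment and to 3 without untreated piglet 1 or 2 of the BUCY experiment or in a fit of only the groups compared. The comparison shares its DOX experiment piglets with the DOX effect, so the values are not independent. Experiment, and whatever differed between the experiments, cannot be told apart here. Markers of dividing cells were lower in the same direction, 5 of 5 past the threshold. Their mean level over piglets was -1.64 to -0.89 against 0.20 to 0.94. After BUCY 5 of 5 of these markers were higher, 4 past the threshold, and after DOX 5 of 5 were lower, 0 past it. Markers of other cell types also differed between the untreated groups, in both directions. The part of these cells in the result was not tested.

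A single untreated piglet stood out for MS4A1, CD79A and CD72, but not for every gene looked at in it. In untreated piglet 3 of the DOX experiment MS4A1 (CD20) was at 1.57, where the other 21 piglets lay between -0.51 and 0.01. Its raw Cy5 signal was 411 there against 59.5 to 108. CD79A was at 1.35 there against -0.55 to 0.73, CD72, a B cell surface lectin, at 0.75 against -0.80 to 0.47, and CCR7, the receptor of CCL21, at 0.81 against -0.98 to 0.42. LTA (0.23) and IgG (0.92) lay within the range of the others. So did CXCR4 at 0.789, but only just, as the highest other value was 0.792. MS4A1 was well above background on only 3 arrays and was not tested. These genes were picked after their values were seen. Without this piglet the DOX difference of CD79A was -0.57, still past the threshold, and that of IgG on the brightest probe was -4.19.

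**Figure D4:**
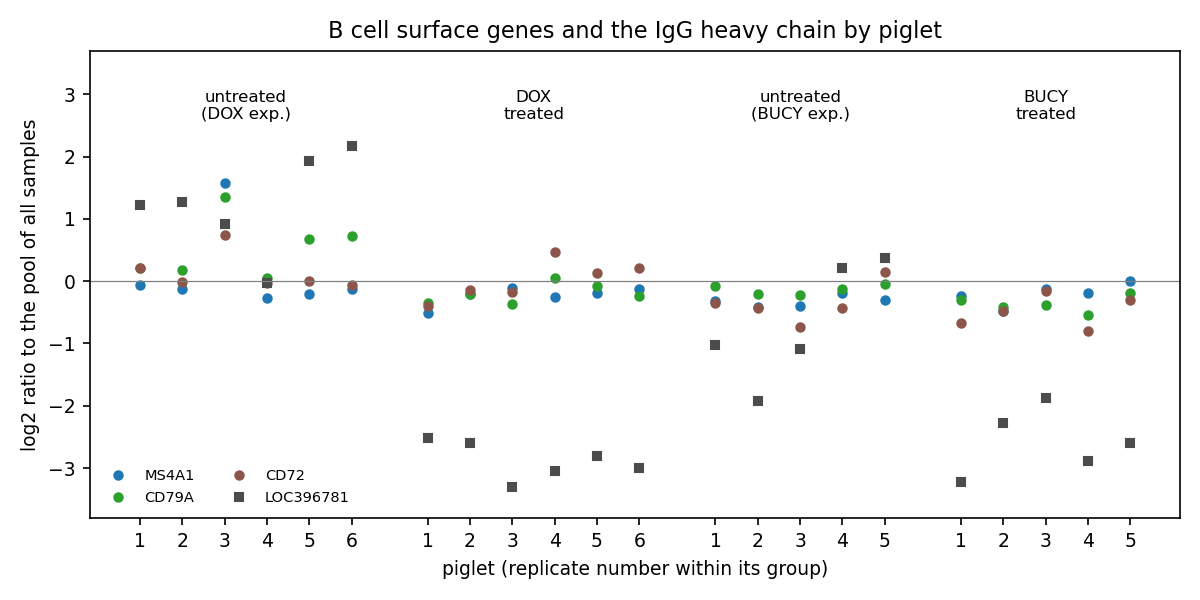
Log2 ratio to the pool (y axis) of MS4A1, CD79A, CD72 and the brightest IgG probe (squares) in each piglet (x axis, by group). Piglet 3 of the untreated DOX group is the highest of all for the 3 B cell genes, and its IgG value of 0.92 lies inside the range of its group.

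Of 90 listed genes of B cells, their signals, homing and antibody handling other than the members, 45 were on the array and 36 could be tested. After DOX 0 of 36 passed the limma threshold and 7 had an unadjusted p under 0.05, and the median difference was -0.05 beside -0.0030 over all tested probes, of which 1.06% were called in either direction. The smallest adjusted p were those of SYK, a kinase below the B cell receptor and other receptors, at -0.54 (adjusted p = 0.0550), and CXCL12, a chemokine that holds plasma cells in their niche, at -0.77 (adjusted p = 0.0632). Both passed under some other settings, SYK in 11 of 35. XBP1, the transcription factor of plasma cells and other secretory cells, was 0.06 higher after DOX on the log2 scale (SE 0.108, adjusted p = 0.839, limma).

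After BUCY 7 of 36 passed (19.4%, where 19.1% of all tested probes were called in either direction), 4 lower and 3 higher. CCR9, the gut homing receptor, fell 1.5-fold (adjusted p = 0.0204, limma), IL5 1.42-fold (adjusted p = 0.0189) and SYK 1.35-fold (adjusted p = 0.0473). Higher were CCL19, the other ligand of CCR7 beside CCL21, 2.50-fold (adjusted p = 0.0366), MADCAM1, the vascular address of gut homing lymphocytes, 2.01-fold (adjusted p = 0.0183), and CCL28, the epithelial ligand of CCR10, 2.01-fold (adjusted p = 0.0448). CCL19 and CCL21, which share the receptor CCR7, thus lay in opposite directions after BUCY. CCL19 was at -0.71, -0.77, -1.83, -1.63 and -0.53 in untreated and -0.29, -0.13, 1.73, -0.77 and 0.60 in treated piglets, and its groups overlapped.

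Most of these BUCY calls were close to the threshold. Without BUCY treated piglets 2 and 3 only 2 of 36 passed, and 2, 3 and 3 passed without untreated piglet 2, treated piglet 2 or treated piglet 3 alone (4 without untreated piglet 3 or 4). SYK lost its call in 19 of 35 other settings, CCL19 in 11 and MADCAM1 in 8. SYK and IL5 had a second probe that did not pass, at -0.01 and -0.15. T cells also carry CCR9, and their markers had lower means after BUCY for 7 of 7 tested genes, 6 past the threshold, with a mean level of -1.17 to -0.80 over treated and -0.34 to 0.36 over untreated piglets. After DOX 7 of 7 had lower means and 3 passed, at -0.62 to 0.22 over treated and 0.25 to 0.61 over untreated piglets, and of 3 myeloid genes CD14 and CD163 were 2.40 and 2.48-fold higher and AIF1 was at -0.44 without passing. After BUCY CD14 and CD163 were 1.75 and 2.71-fold higher and AIF1 was 1.45-fold lower (adjusted p = 0.0415, limma). The part of these cells in the values above was not tested.

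For BUCY minus DOX 0 of 36 passed (limma, 5 with an unadjusted p under 0.05, where 7.15% of all tested probes were called in either direction), and 0 or 1 passed when single arrays were left out. Between untreated piglets 16 of 36 passed (44.4%), all lower in the BUCY experiment. Of all tested probes 14.5% were called lower and 27.1% in either direction. TNFSF13B (BAFF), the survival factor of B cells, was 2.59-fold lower (adjusted p = 1.15e-05, limma), at -1.26 to -0.65 against 0.12 to 0.82. CCL20, an epithelial ligand of CCR6, was 5.81-fold lower (adjusted p = 0.00123), FCGR1A, the high-affinity IgG receptor, 2.56-fold (adjusted p = 8.81e-04; well above background in 3 of 5 untreated piglets of the BUCY experiment, and -3.66 on the log2 scale by the scanner's own ratio), CCL28 2.48-fold (adjusted p = 0.00481) and XBP1 1.55-fold (adjusted p = 2.33e-04). TNFSF13B was at -0.02 to 0.81 in DOX treated and -1.36 to -0.28 in BUCY treated piglets. Its differences after DOX (-0.11, SE 0.177) and BUCY (-0.0085, SE 0.193) did not pass. In the BUCY experiment its raw Cy5 signal was dim, at 90 to 191 in untreated and 98 to 157 in treated piglets. A further decrease of TNFSF13B after BUCY could therefore hardly be measured.

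**Figure D5:**
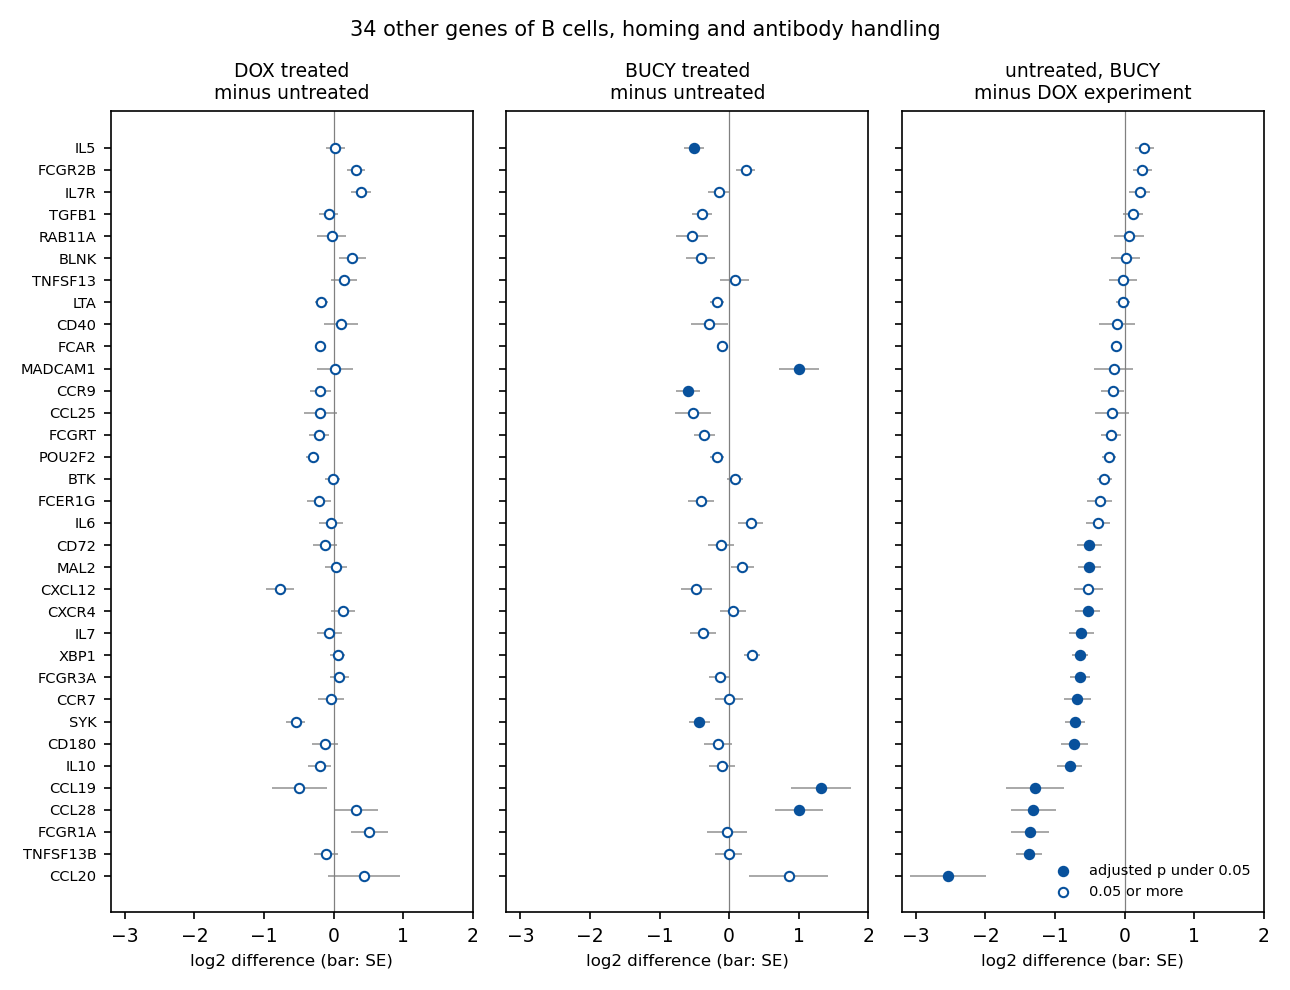
Log2 difference with SE bars (x axes) of 34 other genes of B cells, homing and antibody handling (y axis) after DOX, after BUCY and between the untreated groups; filled points have an adjusted p under 0.05 over all tested probes. The filled points number 0, 6 and 15, and those of the untreated comparison all lie below 0.

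From piglet to piglet within groups, correlations between members ranged from weak to moderate. After removing group means, the correlation over 22 arrays between brightest probes was 0.50 for IgG with CCR10, 0.48 for IgG with PIGR, 0.46 for VPREB1 with CCR10, 0.25 for VPREB1 with CD79A and -0.10 for IgG with VPREB1. Among all tested named genes, those most like a member by this measure were MED27 (0.82), USB1 (0.77) and HPCA (0.76) for IgG, F5 (0.59), MTRF1 (0.57) and TRMT10A (0.56) for VPREB1, and ACAN (0.72) and SLC35E4 (0.68) for CD79A. For CCR10 they were HSD3B1 (0.70), LYZ (0.68) and SNX6 (0.67), for CCL21 RXRB (0.84), GUCA2B (0.80) and CD74 (0.77), and for PIGR DGKA (0.88), KLF5 (0.86) and SSR1 (0.80). These points share arrays, labelling and tissue, and they are the highest of many genes.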

How the data were processed

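The 22 arrays are 2-colour Agilent scanner files, with piglet RNA in Cy5 and the pool in Cy3 per the labels. Per the file headers, Feature Extraction 10.7.3.1 wrote spot and local background intensities, a log10 ratio of red over green and flags for spots above background; the authors also deposited a table of log2 values, which correlated at 0.995 to 1.00 with loess plus quantile ratios computed here. The submitters' processing notes name Agilent Feature Extraction and limma.

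Median intensities were corrected with normexp (offset 50), loess-normalised within arrays with control spots at weight 0, and averaged per probe, without outlier-flagged spots (limma 3.58.1, R 4.3.3). One limma fit over 4 group means used probes well above background on at least 5 arrays, with Benjamini-Hochberg adjustment over all 31752 and a threshold of 0.05. The offset shrinks differences of dim probes. A gene of a list is its brightest tested probe. The piglet is the replicate. Symbols came from transcript accessions through RefSeq's pig annotation (Sscrofa11.1); 15.4% of probes have one. Members and lists were chosen with earlier results of these data known. Named genes are all members, up to 4 per list and comparison by smallest p past the threshold (where a list has none, its smallest p), and the 3 genes most like each member; CCL28 after BUCY, MS4A1 and the other genes of untreated piglet 3 were added after their values were seen. Some genes that the rule names are counted but not reported here. The fit was tested on simulated data. Alternatives were other background corrections, normalisations, filters and blocks, the deposited values, and leaving out arrays.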

Additional observations from a re-analysis of the deposited data

Results flagged for a closer look

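Values of a single piglet far from the rest of its group were looked for in 108 groups of 5 or 6 piglets, where chance gives about 1 in 20, and 5 were found. CCR10 was at 1.05 in untreated piglet 6 of the DOX experiment, next to 0.48; without this piglet the difference after DOX was -1.02. CD72 was at 0.75 in untreated piglet 3 of the DOX experiment, next to 0.21. XBP1 was at -0.45 in DOX treated piglet 3, next to -0.02. CCL20 was at 0.39 in BUCY treated piglet 1, next to -1.69, and CCR7 at 0.31 in BUCY treated piglet 3, next to -0.62.

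The effect of BUCY differed from that of DOX past the limma threshold for the brightest IgG probe, A_72_P152696, by 2.24 on the log2 scale, and for VPREB1 by 1.13 and 1.05 on its probes. These genes were chosen with these contrasts known, and the untreated groups of the experiments differed for them as well.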

How the results depend on the processing

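No paired analysis was possible because replicate numbers were given in accession order and tie no animals together. No called value of a named gene reversed under any of up to 35 alternatives, and Aquantile between arrays leaves log ratios unchanged by construction. The median of the 13 IgG probes stayed between -4.42 and -4.06 after DOX and between -2.98 and -2.15 after BUCY when single arrays were left out, and at -5.16 to -4.17 and -3.10 to -2.43 under the other alternatives. The brightest IgG probe missed the threshold after BUCY without the 6 arrays with a suffix in their title (-1.41), and for BUCY minus DOX with slide as a fixed block (1.46). For every count below the cause of the change was not tested.

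Of the 36 other genes, those past the threshold after DOX (0) were 1 with no background correction, with median centring, with the Agilent ratio or with scan day as a block, 2 with slide as a fixed or random block or without BUCY treated arrays 2 and 3, and 3 in a fit of only the groups compared. After BUCY (7) they were 4 with no filter on dim probes or without the arrays with a suffix, 3 with slide as a fixed block, 1 in a fit of only the groups compared and 2 without BUCY treated arrays 2 and 3. For BUCY minus DOX (0) they were 1 with the Agilent ratio, with slide as a fixed or random block, and without either set of arrays. Leaving out single arrays gave 0 to 2 after DOX, 2 to 9 after BUCY and 0 to 1 for BUCY minus DOX.

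Of all probes, 336 passed after DOX: 120 with median centring, 1140 in a fit of only the groups compared, 771 without BUCY treated arrays 2 and 3, and 176 to 525 without single arrays. After BUCY 6068 passed: 3518 with slide as a fixed block, 1463 with only the groups compared, 2272 without the arrays with a suffix, 1853 without BUCY treated arrays 2 and 3, and 3419 to 8725 without single arrays. For BUCY minus DOX 2271 passed: 150 with median centring, 662 without the arrays with a suffix, 1426 without BUCY treated arrays 2 and 3, and 1523 to 3584 without single arrays. Between untreated groups 8615 passed, and 5378 with median centring. Median centring moved the median of all probes after BUCY to -0.15, and directions above are relative to loess. Dim signals limit, among others, VPREB1, CD79A, MS4A1, FCGR1A and, in the BUCY experiment, TNFSF13B. After treatment they also limit CCR10 and the IgG probe A_72_P711793. Fold sizes of dim probes shrink with the offset. With the Agilent ratio the smallest difference among the 13 IgG probes after DOX was -3.93 in place of -2.70.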
